A study of Homo sapiens with 4 samples.

Results

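The genes of TGF-β and BMP signalling were examined in NB4 cells, 35 members among the 60662 genes of the deposited table. A member is any row of that table whose gene name is on a list of ligands, latent complex proteins, receptors, coreceptors, SMADs, SMAD ubiquitin ligases, SMAD corepressors and proteins tied to the pathway. All 35 were found, each once. NB4 is a human M3/APL line carrying PML-RARα. The cells had been transduced with the empty control vector (2 libraries) or with a vector expressing JMJD3, the H3K27 demethylase encoded by KDM6B (2 libraries), so that the comparison asks what forced JMJD3 expression does to the transcriptome. In the study's methods the vector is a lentiviral plasmid that also carries GFP, and GFP-positive cells were sorted. No further treatment is named for either group. Whether a group's libraries stem from separate transductions is not stated, so that the p-values measure only the spread between these libraries, which may be technical.

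TGF-β ligands are secreted in a latent complex and, once released, bring a type II and a type I receptor kinase together. The activated type I receptor phosphorylates receptor-regulated SMADs, SMAD2 and SMAD3 for TGF-β and activin, SMAD1, SMAD5 and SMAD9 for BMP, which enter the nucleus with SMAD4. Inhibitory SMADs, SMURF ligases and the corepressors SKI, SKIL, TGIF1 and TGIF2 restrain the signal, which in blood progenitors is best known for holding back proliferation.

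The libraries held 34190336 and 38947094 estimated counts in vector libraries 1 and 2, and 35431655 and 41876226 in JMJD3 libraries 1 and 2. Levels of 1 gene across libraries are given as CPM (counts scaled to library size with edgeR's TMM method), and levels of different genes as the authors' FPKM, which is per length. By their labels, vector library 1 was sequenced on lane 20 while lane 17 held the remaining 3. KDM6B (ENSG00000132510; chromosome 17, 7834217 to 7854796 in GRCh38.p14) stood at 15.8 and 13.7 CPM in the vector libraries and at 37.9 and 44.2 CPM in the JMJD3 libraries. Both JMJD3 libraries were above both vector libraries, as their labels state, with a log2 fold change of 1.48 and a standard error (SE) of 0.13. The adjusted p was 0.00116 by the quasi-likelihood test of edgeR, which also gave the other adjusted p-values unless another tool is named. Reads of the vector and of the cell's own gene are not separated in these counts.

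Promyelocyte markers fitted the labelled cell line. All 7 were detected, with a summed level of 16631 and 17419 CPM in the vector libraries and 10549 and 10510 CPM in the JMJD3 libraries, led by MPO, the granule peroxidase, at 13874, 14099, 9384 and 9426 CPM in the same order. The JMJD3 libraries were the lower ones. Of the 6 markers tested 4 fell, by very different amounts, and 1 rose: CTSG had a log2 fold change of -3.91 (adjusted p = 9.92e-05), PRTN3 -1.81 (0.000416), MPO -0.57 (0.00174), AZU1 -0.56 (0.0120) and CD33 0.29 (0.0372, edgeR). The 4 falls passed with any 1 library left out, while CD33 did not pass without JMJD3 library 1 (adjusted p = 0.388) or JMJD3 library 2 (0.283). MPO makes up most of the sum, which therefore does not show the larger falls. ELANE, a defining granule protease, was at most 0.339 CPM. The 7 monocyte and macrophage markers summed to 7.31 and 5.73 CPM in vector cells against 15.4 and 15.4 CPM in JMJD3 cells, most of it CSF1R (4.93 and 3.84 against 12.9 and 12.9 CPM), with FCGR3A at 0. What part these shifts had in the differences described next was not tested, and in such bulk libraries fewer cells of a type and less RNA per cell cannot be told apart.

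Markers of other lineages were near 0 or rested on 1 or a few genes. The 8 fibroblast and stromal markers summed to between 0.432 and 1.05 CPM, and PDGFRB was the highest of them in each library (0.339, 0.219, 0.858 and 0.963 CPM), with COL1A2, COL3A1, LUM and THY1 at 0. The erythroid markers summed to at most 0.110 CPM, all of it KLF1, and HBA1, HBA2, HBB and ALAS2 were at 0. The 6 megakaryocyte and platelet markers summed to between 2.00 and 3.72 CPM, with PF4 and GP9 at 0. GP1BA led them by its mean and did not pass, while in JMJD3 library 1 ITGA2B lay above it (1.74 against 1.64 CPM). The 6 T and NK cell markers summed to between 13.8 and 16.6 CPM. NCAM1 led these in the vector libraries (10.1 and 8.60 CPM, CD2 3.48 and 4.85 CPM) and CD2 in the JMJD3 libraries (10.8 and 10.8 CPM, NCAM1 4.37 and 5.51 CPM). The 5 B cell markers summed to between 25.9 and 36.6 CPM, led by CD79B, with MS4A1 at 0.

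Of these other markers 5 passed. PDGFRB (log2 fold change 1.71, adjusted p = 0.00994), ITGA2B (1.42, 0.00555), CD2 (1.37, 0.00253) and CD79A (0.83, 0.00413) were higher in JMJD3 cells, and NCAM1 was lower (-0.91, 0.00696, edgeR). Each kept its call with any 1 library left out, except PDGFRB without JMJD3 library 2 (adjusted p = 0.0512). What these changes had to do with those of the members was not tested.

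Of the 35 members, 29 passed the filter on low counts and were tested with p adjusted over 15243 genes. At an adjusted p under 0.05, 6 of the 29 were higher and 5 lower in JMJD3 cells, and 18 did not pass. Among all genes tested 40.8% passed in either direction, 21.7% as higher and 19.1% as lower, so that the members' 37.9% lies near the background and is not a result about them as a group. With a change of at least 2-fold added, 2 members were higher and 2 lower, against 10.5% of all genes in either direction. Their median log2 fold change was 0.13, that of all genes tested 0.04, and the median of its size was 0.31 for members and 0.36 for all genes. Without vector library 2 the median log2 fold change was 0.008 for members and 0.026 for all genes. With limma on log2(FPKM + 0.1) it was 0.24 for members and 0.023 for all genes. The groups did not overlap in CPM for 19 of the 29, against 74.3% of all genes tested. What differed was which members moved, as the plot of their levels shows.

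**Figure D1:**
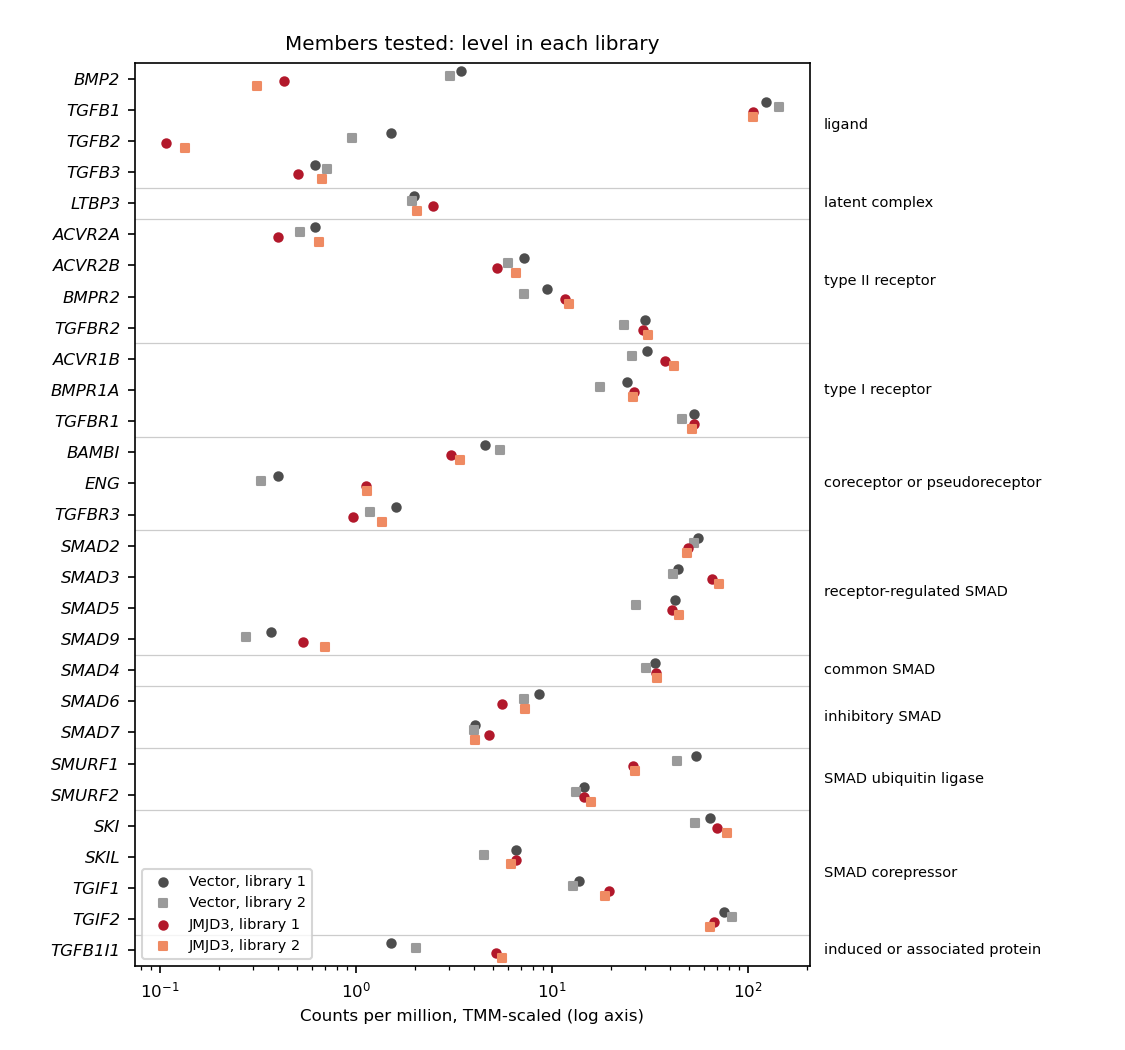
CPM (TMM-scaled counts, log axis) of the 29 members tested, ordered by role, with 1 point for each of the 2 vector and 2 JMJD3 libraries. BMP2, TGFB2 and SMURF1 lie to the left in both JMJD3 libraries, ENG, TGFB1I1 and SMAD3 to the right, and most receptors and SMADs lie close together.

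These counts depend on which libraries are kept, for the members as for all genes. Without vector library 1, which leaves only lane 17, 11 members were higher and 6 lower (58.6%), while 4627 genes were higher and 4526 lower (57.3% of those tested). The 11 members called with all libraries were among them. The members gained were TGFBR2, SMAD5, SKI, SKIL and BMPR1A as higher and TGIF2 as lower. With only 1 vector library left there, the fit takes it to vary as the JMJD3 libraries do. Without vector library 2, which keeps both lanes, 6 members were higher and 7 lower (44.8%), with SMAD6 and TGIF2 gained as lower, and 3877 genes were higher and 3838 lower (48.8%). The lane and the spread between the vector libraries cannot be told apart here. Without JMJD3 library 1 and without JMJD3 library 2, 3 members were higher and 3 lower each time (20.7%), against 20.2% and 16.7% of all genes tested. In each of these fits the members' share lies near that of all genes.

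Ligands gave the largest differences. TGFB1, the ligand that blood cells chiefly make, held between 96.5% and 99.0% of the summed FPKM of the 6 ligands in each library. It stood at 123 and 145 CPM in the vector libraries and at 107 and 106 CPM in the JMJD3 libraries. Both JMJD3 libraries were below both vector libraries, and the vector pair was spread more widely. TGFB1 fell by 0.34 on the log2 scale (SE 0.10, edgeR adjusted p = 0.0344). This call is weak: the adjusted p was 0.213 without JMJD3 library 1, 0.245 without JMJD3 library 2, 0.0608 with upper quartile scaling, 0.0612 with the replicate block, and 0.0564 and 0.0548 with limma on log2(FPKM + 1) and log2(FPKM + 0.1). The log2 fold change of TGFB1 stayed at -0.34 and -0.33 without JMJD3 libraries 1 and 2 in turn. It was -0.49 without vector library 1 and -0.22 without vector library 2, where the call held.

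TGFB2, a second TGF-β isoform, was present at low level in vector cells, with 49 and 35 counts, and almost lost in JMJD3 cells, with 4 and 6 counts. These are 1.51 and 0.959 CPM against 0.107 and 0.134 CPM. Every vector library was above every JMJD3 library, and the JMJD3 values lie just over the 3 counts that a count of 0 allows. The log2 fold change was -3.30 (SE 0.43, edgeR adjusted p = 0.00270).

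BMP2, a ligand of the BMP branch that acts through SMAD1, SMAD5 and SMAD9, had 112 and 111 counts in vector cells and 16 and 14 counts in JMJD3 cells, or 3.45 and 3.04 CPM against 0.429 and 0.313 CPM. The libraries of each group lay close together and the groups far apart. The means were 3.25 ± 0.291 and 0.371 ± 0.0818 CPM (vector and JMJD3, SD, n = 2 each). BMP2 fell by 3.13 on the log2 scale (SE 0.25, edgeR adjusted p = 0.00100), an 8.76-fold difference. With each library left out in turn the log2 fold change lay between -3.36 and -2.91.

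TGFB3, the third TGF-β isoform, stood between 0.510 and 0.713 CPM in all libraries, the groups overlapped, and it did not pass (edgeR adjusted p = 0.693). BMP4, another BMP ligand, had 1 count in JMJD3 library 1 and 0 elsewhere, and INHBA, the activin A subunit, had at most 1 count in any library. Neither was tested. Of the latent complex, LTBP1 had 0 counts in every library, which allows at most 0.0925 CPM in the shallowest. LTBP3, which tethers latent TGF-β to the matrix, stood at 1.97, 1.95, 2.49 and 2.06 CPM and did not pass (log2 fold change 0.21, edgeR adjusted p = 0.401).

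**Figure D2:**
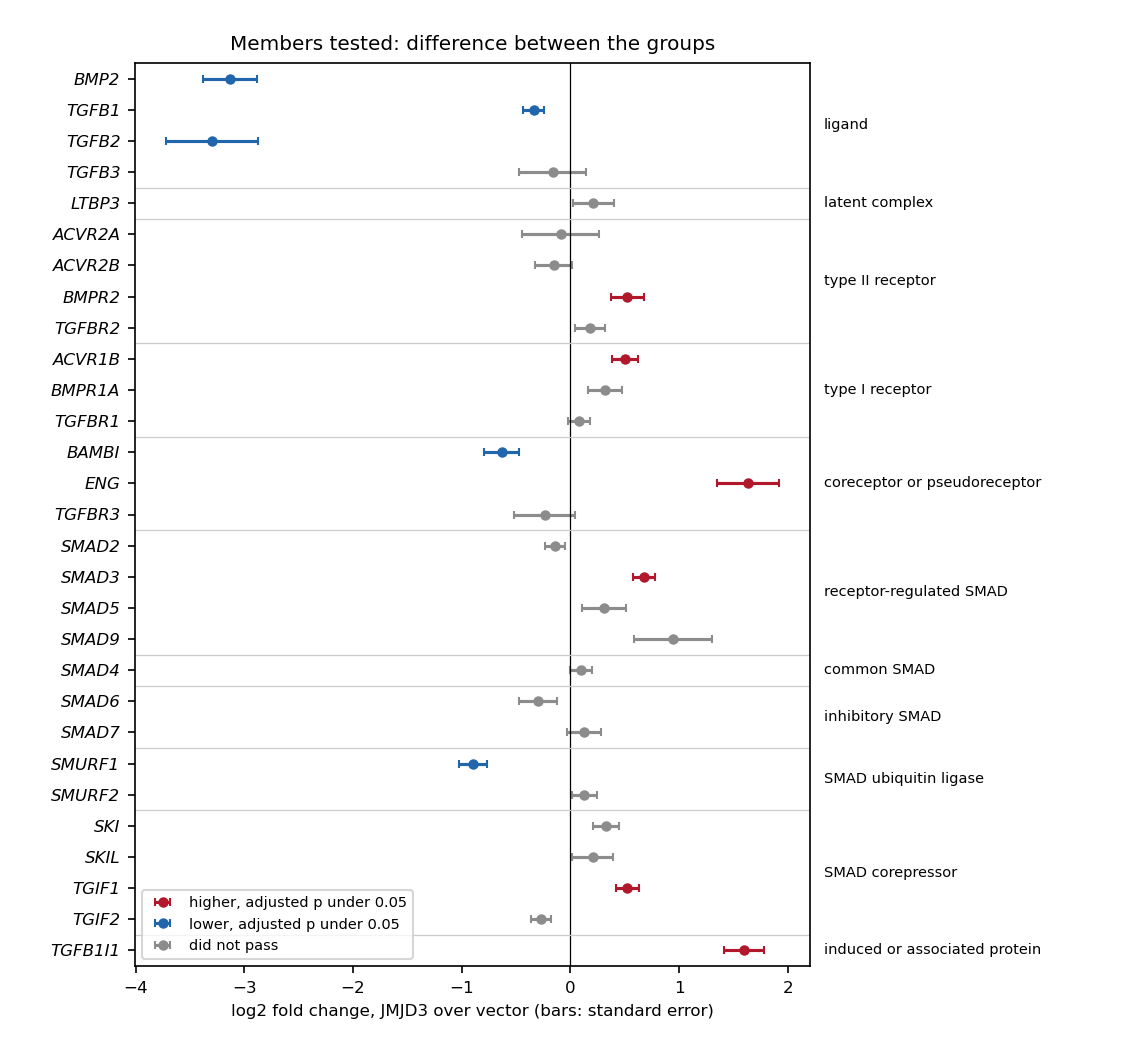
The log2 fold change of JMJD3 over vector cells from edgeR for the 29 members tested, by role, with bars of 1 standard error and colours for members past an adjusted p of 0.05. TGFB2 at -3.30 and BMP2 at -3.13 lie farthest to the left, ENG at 1.63 and TGFB1I1 at 1.60 farthest to the right, and 18 members in grey did not pass.

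The TGF-β receptors themselves were expressed and did not pass. TGFBR2, the type II receptor for TGF-β, stood at 29.9 and 23.3 CPM in vector cells and 29.3 and 30.9 CPM in JMJD3 cells. TGFBR1, the type I receptor that phosphorylates SMAD2 and SMAD3, stood at 53.1, 46.4, 53.3 and 51.8 CPM in the same order. For both genes the groups overlapped, with log2 fold changes of 0.18 and 0.08 (adjusted p = 0.330 and 0.568, edgeR), while TGFBR2 reached 0.33 without vector library 1 (adjusted p = 0.00542) and 0.01 without vector library 2 (adjusted p = 0.948). TGFBR2 made up between 77.3% and 79.4% of the summed FPKM of the 4 type II receptors.

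BMPR2, the type II receptor for BMPs, was at 9.47 and 7.23 CPM in the vector libraries and at 11.7 and 12.2 CPM in the JMJD3 libraries. Both JMJD3 libraries were higher, by a log2 fold change of 0.52 (SE 0.15, edgeR adjusted p = 0.0330). ACVR1B, the type I receptor for activin, was at 30.6 and 25.8 CPM against 37.8 and 41.9 CPM. Here too the groups did not overlap, and the log2 fold change was 0.50 (SE 0.12, edgeR adjusted p = 0.0189). Neither call held without JMJD3 library 1 or without JMJD3 library 2. The log2 fold changes in these fits were 0.55 and 0.50 for BMPR2 and 0.57 and 0.43 for ACVR1B. Without vector library 1 and without vector library 2 they were 0.69 and 0.34 for BMPR2 and 0.59 and 0.38 for ACVR1B. With limma on log2(FPKM + 1) both calls were lost as well (adjusted p = 0.135 for BMPR2 and 0.0512 for ACVR1B), BMPR2 with a log2 fold change of 0.23. With limma on log2(FPKM + 0.1) that of BMPR2 alone was lost (0.190).

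The remaining receptors did not pass. BMPR1A, a type I receptor for BMPs, stood at 24.3 and 17.6 CPM in vector cells against 26.3 and 25.9 CPM in JMJD3 cells, with a log2 fold change of 0.32 (edgeR adjusted p = 0.148). It was 0.52 without vector library 1 (adjusted p = 0.000199) and 0.10 without vector library 2 (adjusted p = 0.370). Vector library 2 was the lowest, and vector library 1 lay just under the JMJD3 pair. The activin type II receptors ACVR2A and ACVR2B ranged from 0.402 to 0.649 CPM and from 5.26 to 7.21 CPM with overlapping groups. ACVR1, a type I receptor for BMPs, had between 4 and 8 counts in each library and was not tested.

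A coreceptor and a pseudoreceptor moved in opposite directions. ENG, endoglin, which helps ligands reach their receptors on endothelium and some blood cells, had 13 and 12 counts in vector cells and 42 and 51 counts in JMJD3 cells, that is 0.401 and 0.329 CPM against 1.13 and 1.14 CPM. It was low in every library and higher in both JMJD3 libraries, with a log2 fold change of 1.63 (SE 0.29, edgeR adjusted p = 0.00674). BAMBI, a pseudoreceptor that lacks the kinase domain and blocks type I receptors, stood at 4.59 and 5.45 CPM in vector cells and at 3.06 and 3.43 CPM in JMJD3 cells. Both JMJD3 libraries were lower, and BAMBI fell by 0.63 on the log2 scale (SE 0.16, edgeR adjusted p = 0.0220). That call was lost without JMJD3 library 1 (adjusted p = 0.138), without JMJD3 library 2 (0.0698), with the DESeq2 Wald test (0.0530) and with limma on log2(FPKM + 1) and log2(FPKM + 0.1) (0.0587 and 0.0676). TGFBR3, betaglycan, which presents TGF-β2 to the receptors, ranged from 0.965 to 1.60 CPM with overlapping groups.

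Among the receptor-regulated SMADs only SMAD3 passed. SMAD3 stood at 44.2 and 41.4 CPM in vector cells and at 65.5 and 71.4 CPM in JMJD3 cells. Both JMJD3 libraries lay well above both vector libraries. Its mean rose from 42.8 ± 2.02 CPM to 68.5 ± 4.23 CPM (SD, n = 2 each), a log2 fold change of 0.68 (SE 0.10, edgeR adjusted p = 0.00367). SMAD2, its partner in the TGF-β branch, was at 56.0, 53.0, 49.7 and 49.0 CPM and did not pass (log2 fold change -0.14, adjusted p = 0.241). On the FPKM scale SMAD2 exceeded SMAD3 in every library, but its share of their sum was 69.3% and 73.9% in vector cells and 63.2% and 58.6% in JMJD3 cells. The shares of the groups did not overlap.

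The BMP branch rested on 1 SMAD. SMAD1 had 0 counts in all 4 libraries, SMAD9 had between 10 and 31 counts, and SMAD5 made up at least 98.8% of the summed FPKM of the 3. SMAD5 stood at 42.5 and 27.0 CPM in the vector libraries and at 41.2 and 44.8 CPM in the JMJD3 libraries. Vector library 2 alone was low, vector library 1 lay between the JMJD3 libraries, and SMAD5 did not pass (log2 fold change 0.31, SE 0.20, edgeR adjusted p = 0.256), with 0.63 without vector library 1 (adjusted p = 3.04e-05) and 0.02 without vector library 2 (adjusted p = 0.889). SMAD9 stood at 0.370 and 0.274 CPM against 0.536 and 0.694 CPM and did not pass either (log2 fold change 0.95, adjusted p = 0.0747). The summed FPKM of SMAD2 and SMAD3 was 5.35 and 7.95 times that of the BMP branch in vector cells and 6.14 and 4.40 times in JMJD3 cells, so that the groups overlapped.

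SMAD4, the common partner of both branches, stood at 33.9 and 30.3 CPM in vector cells and 34.2 and 34.4 CPM in JMJD3 cells (log2 fold change 0.10, edgeR adjusted p = 0.482). The inhibitory SMADs, which compete for the receptors and are themselves induced by the signal, did not pass: SMAD6 ranged from 5.55 to 8.63 CPM and SMAD7 from 4.0 to 4.77 CPM, with overlapping groups for both. On chromosome 15 of GRCh38.p14, SMAD6 and SMAD3 lie 282.8 kb apart in the RefSeq annotation, and only SMAD3 passed. On chromosome 5, TGFBI, with 0 counts throughout, lies 69.0 kb from SMAD5, which was expressed in every library.

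The SMURF ligases, which mark receptors and SMADs for degradation, did not move alike. SMURF1 stood at 54.7 and 43.6 CPM in vector cells and at 26.0 and 26.7 CPM in JMJD3 cells. Both JMJD3 libraries lay far below both vector libraries. SMURF1 fell by 0.90 on the log2 scale (SE 0.13, edgeR adjusted p = 0.00387), a 1.86-fold difference that passed in each of the 14 other fits. SMURF2, its paralog, was at 14.6, 13.4, 14.7 and 15.9 CPM and did not pass (log2 fold change 0.13, SE 0.11, adjusted p = 0.377). The difference between the paralogs was itself not tested. By FPKM, SMURF1 was above SMURF2 in vector cells (mean 9.53 against 4.72) and close to it in JMJD3 cells (5.19 against 5.31).

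Of the corepressors, which recruit histone deacetylases to SMAD complexes, TGIF1 passed. It stood at 13.8 and 12.9 CPM in vector cells and at 19.7 and 18.7 CPM in JMJD3 cells. The groups were well separated, with a log2 fold change of 0.52 (SE 0.11, edgeR adjusted p = 0.0103), yet the call was lost without JMJD3 library 1 (adjusted p = 0.118) or JMJD3 library 2 (0.0781). Its paralog TGIF2 was at 75.5 and 83.0 CPM in vector cells and 67.4 and 63.9 CPM in JMJD3 cells, just short of the threshold (log2 fold change -0.27, adjusted p = 0.0552, and 0.0446 with DESeq2 size factors). SKI stood at 64.3 and 53.6 CPM against 70.0 and 78.4 CPM and was also just short of it (log2 fold change 0.33, adjusted p = 0.0637, and 0.0361 with upper quartile scaling). SKIL ranged from 4.52 to 6.57 CPM with overlapping groups.

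TGFB1I1, also called Hic-5, is a focal adhesion protein that is induced by TGF-β in other cells. It had 49 and 74 counts in vector cells and 193 and 249 counts in JMJD3 cells, or 1.51 and 2.03 CPM against 5.18 and 5.57 CPM. Both JMJD3 libraries were higher, with a log2 fold change of 1.60 (SE 0.19, edgeR adjusted p = 0.00219), a 3.02-fold difference. With limma on log2(FPKM + 1), a scale that understates the change of low genes, TGFB1I1 was at 0.91, ENG at 0.71, BMP2 at -0.83 and TGFB2 at -0.39, and all 4 still passed. TGFBI, a secreted matrix protein strongly induced by TGF-β in many cells and made by macrophages, had 0 counts in every library.

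Per length, TGFB1 was above each of the other members in every library, and the order below it was not the same in the 2 groups. In vector cells the means were 56.9 FPKM for TGFB1, 30.2 for TGIF2, 30.0 for SMAD2, 18.9 for SKI, 15.6 for TGIF1, 13.7 for SMAD4, 12.0 for SMAD3 and 9.71 for TGFBR1. In JMJD3 cells they were 43.6 for TGFB1, 34.8 for SKI, 34.1 for SMAD2, 31.2 for TGIF2, 23.6 for SMAD4, 22.8 for TGIF1, 22.0 for SMAD3 and 15.5 for TGFBR1. With 2 libraries a group, neighbours such as TGIF2 and SMAD2 in vector cells, or SKI and SMAD2 in JMJD3 cells, overlap and are not separated. The length behind FPKM also shifts between the groups, as described below: it was shorter in JMJD3 cells for SKI, SMAD4, TGFBR1, SMAD2 and TGIF2. None of these passed by count, and TGIF2 was lower in JMJD3 cells by CPM while its mean FPKM was higher, so the changed order is not to be read as a change in counts. The members with the largest fold differences stood low, BMP2 at 0.978 and 0.110 FPKM, ENG at 0.346 and 1.20 FPKM and TGFB2 at 0.361 and 0.0352 FPKM (vector and JMJD3 means).

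Promoters are shown for the members that moved most among those with a mean of at least 1 FPKM, TGFB1I1 and SMAD3 as the higher and SMURF1 and BAMBI as the lower, to set their sequence beside the opposite changes. The lines give the 250 bases before the most upstream start in RefSeq (GRCh38.p14), 5′ to 3′ on the strand of the gene. Capitals mark CAGAC, the SMAD binding element, on either strand. TGFB1I1 is at chr16:31471902-31472151 on the plus strand, SMAD3 at chr15:67065352-67065601 on the plus strand, SMURF1 at chr7:99144109-99144358 on the minus strand and BAMBI at chr10:28677271-28677520 on the plus strand.
TGFB1I1: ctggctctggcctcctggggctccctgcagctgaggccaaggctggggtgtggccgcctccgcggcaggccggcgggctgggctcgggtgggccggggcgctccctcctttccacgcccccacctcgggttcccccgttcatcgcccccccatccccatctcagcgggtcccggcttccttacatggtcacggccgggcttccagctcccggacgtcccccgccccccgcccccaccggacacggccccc
SMAD3: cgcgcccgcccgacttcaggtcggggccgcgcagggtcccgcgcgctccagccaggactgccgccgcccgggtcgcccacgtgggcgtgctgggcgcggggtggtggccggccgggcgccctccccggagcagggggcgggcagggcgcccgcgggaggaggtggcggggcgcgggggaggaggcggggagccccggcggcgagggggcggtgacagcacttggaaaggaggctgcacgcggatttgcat
SMURF1: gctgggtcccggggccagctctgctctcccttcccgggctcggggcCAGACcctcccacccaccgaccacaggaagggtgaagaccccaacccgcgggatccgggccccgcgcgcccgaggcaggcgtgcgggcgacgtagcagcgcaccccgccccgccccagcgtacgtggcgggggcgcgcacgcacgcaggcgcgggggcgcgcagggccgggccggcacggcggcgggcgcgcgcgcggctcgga
BAMBI: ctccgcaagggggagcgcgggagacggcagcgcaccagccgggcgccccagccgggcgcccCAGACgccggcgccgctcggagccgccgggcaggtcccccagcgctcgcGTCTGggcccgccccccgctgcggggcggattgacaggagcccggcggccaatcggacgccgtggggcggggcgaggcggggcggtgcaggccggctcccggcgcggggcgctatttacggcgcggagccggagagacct

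These windows are rich in G and C, with 76.4% in TGFB1I1, 80.8% in SMAD3 and 81.2% in SMURF1 and in BAMBI. CAGAC was found 1 time in SMURF1 and 2 times in BAMBI, and not in the windows printed for TGFB1I1 and SMAD3. This does not set members that rose apart from those that fell: it lay before another start of SMAD3 and before starts of ACVR1B, BMPR2 and TGIF1, which rose as well. Of the 35 members 33 matched the promoter table by symbol, with 70 starts, SKI and BMP2 being the others. CAGAC lay before 26 of these starts (37.1%), against 38.0% of all 35116 starts. The palindrome GTCTAGAC, which shares no full CAGAC, lay before 1 (a start of SMAD6), against 0.182% of all, and the C/EBP motif TTNNGCAA before 4 (1 each of LTBP1, SMAD4, SMAD6 and TGIF2; 5.71%), against 9.05% of all. A match is a description of these letters and not a site of binding.

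The count and the FPKM of a gene did not always move together, and the length behind FPKM, taken from their ratio, restates this. FPKM divides by a transcript length, and in these data the length implied by dividing the count by FPKM differs between libraries for the same gene. Among the 21 members with at least 50 counts in every library, this length was at least 1.25-fold shorter in JMJD3 cells, with no overlap of the groups, for 7 (SMAD4, TGFBR1, SKI, SKIL, SMAD5, SMAD2 and TGIF2), and longer by as much for 0. Over all 11484 such genes, 359 genes (3.13%) were shorter by this rule and 402 genes longer. TGIF2 only just met the rule, at 1.252-fold. SMAD6 just missed it in the other direction. Relative to its mean over the libraries, its length was 0.927 and 0.875 in vector cells and 1.08 and 1.14 in JMJD3 cells, without overlap. The rule was chosen after the values were seen, and no test was made.

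SMAD4 had the largest shift. Relative to its mean over the libraries, its implied length was 1.21 and 1.34 in vector cells and 0.781 and 0.788 in JMJD3 cells, so that the JMJD3 libraries were 1.62-fold shorter. For TGFBR1 the values were 1.14 and 1.35 against 0.816 and 0.801, and for SKI 1.08 and 1.39 against 0.844 and 0.794. In all 3 genes both vector libraries were above both JMJD3 libraries, and what part the lane had was not tested. SMURF1, TGFBR2, BAMBI, BMPR2 and TGFB1 showed nearly the same length in all libraries, between 0.957 and 1.03 of their mean.

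These 3 genes were higher by FPKM without being called by count. The FPKM of SMAD4 was 15.2 and 12.3 in vector cells and 23.5 and 23.8 in JMJD3 cells, which differ by 0.79 as log2 fold change on the log2(FPKM + 0.1) scale (adjusted p = 0.0144 from limma), against 0.10 by count. For TGFBR1 the same limma fit gave 0.68 (adjusted p = 0.0330) and for SKI 0.90 (adjusted p = 0.0297). How the authors set the length is not given in the sources used here, and whether transcript use differs in these cells was not tested.

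Genes of the pathway outside the 35 members moved in a similar share. Of 115 such genes 71 were tested, with 11 higher and 15 lower in JMJD3 cells, or 36.6% against the 40.8% of all genes, and a median log2 fold change of -0.03. Among ligands 7 of 27 were tested, with GDF11, a relative of myostatin, higher (log2 fold change 0.54) and AMH, anti-Müllerian hormone, lower (-1.05). Both genes had groups that did not overlap, GDF11 at 25.9 and 24.3 against 35.9 and 37.1 CPM and AMH at 17.0 and 22.0 against 10.1 and 8.84 CPM.

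Of 11 receptors and coreceptors 3 were tested, and the 2 that passed were BMP or nodal coreceptors. RGMA, a BMP coreceptor, had 118 and 110 counts in vector cells and 4 and 18 counts in JMJD3 cells. TDGF1, the nodal coreceptor Cripto, had 11 and 23 counts against 3 and 2. Both were low in JMJD3 cells, as BMP2 was, with log2 fold changes of -3.62 (SE 0.41, adjusted p = 0.00204) and -2.94 (SE 0.60, edgeR adjusted p = 0.0108), and by count RGMA ran from -4.91 to -3.03 with 1 library left out. By FPKM its fall was smaller, from 0.325 and 0.277 to 0.0287 and 0.0910 FPKM, with -1.35 and -0.30 by limma on log2(FPKM + 0.1) and log2(FPKM + 1), where the added constant also shrinks differences at so low a level. The TDGF1 call was lost without JMJD3 library 2 (adjusted p = 0.0503) and with limma on log2(FPKM + 1) (0.0663).

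In latency and activation 6 of 10 were tested. THBS1, thrombospondin 1, an activator of latent TGF-β, rose from 8.39 and 6.60 CPM to 12.5 and 13.9 CPM (log2 fold change 0.82). NRROS, which holds latent TGF-β on myeloid cells, fell from 168 and 177 CPM to 125 and 122 CPM (log2 fold change -0.49). Of the extracellular antagonists 7 of 16 were tested, with the BMP antagonist NOG higher (log2 fold change 0.80) and FST, which binds activin, and CHRD, a BMP antagonist, lower (-1.54 and -0.63). NOG, FST and CHRD had groups that did not overlap.

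Of 33 regulators of receptors and SMADs 30 were tested, with 3 higher and 7 lower. The higher ones were the endosomal proteins ZFYVE16 (log2 fold change 0.68) and ZFYVE9 (0.42), of which ZFYVE9 is known as SARA, the anchor that presents SMAD2 and SMAD3 to the receptor, and SNX6 (0.49). With each library left out in turn, the log2 fold change of ZFYVE16 ran from 0.39 to 1.00. DAB2, an endocytic adaptor (-1.18), STUB1, a ubiquitin ligase (-0.55), and HGS, an endosomal sorting protein (-0.46), fell most in log2 fold change. All 18 nuclear partners of SMADs were tested, with 5 higher and 2 lower: ZEB1, a repressor that binds SMADs, RUNX2 and FOXO1 rose most (1.30, 0.76 and 0.67), and E2F4 and HDAC1 fell (-0.30 and -0.25). ZEB1 stood at 17.1 and 11 CPM in vector cells and at 33.8 and 35.4 CPM in JMJD3 cells.

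Genes known to respond to TGF-β or BMP in some cells did not move in 1 direction. Of 35 such genes 26 were tested, with 6 higher and 5 lower, 42.3% against the 40.8% of all genes, and a median log2 fold change of 0.09. ID2, a BMP target that blocks basic helix-loop-helix factors, stood at 23.4 and 23.8 CPM in vector cells and at 5.71 and 6.16 CPM in JMJD3 cells. ID1, another BMP target, had 11 and 14 counts against 30 and 33. ID2 was far lower in both JMJD3 libraries (log2 fold change -1.99, SE 0.11, edgeR adjusted p = 0.000386), while ID1 was low throughout and higher in both (1.08, SE 0.31, adjusted p = 0.0315), a call lost when any 1 library was left out, with adjusted p up to 0.25 over the other fits.

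ACTA2, smooth muscle actin, was at 2.77 and 3.04 CPM in vector cells and 7.08 and 6.65 CPM in JMJD3 cells, and TIMP1, a protease inhibitor, at 85.9 and 100.5 against 136 and 128 CPM. Both rose, by log2 fold changes of 1.24 and 0.51. MMP2, a matrix protease, was at 50.4 and 53.7 CPM against 22.8 and 24.3 CPM, and ITGAE, an integrin chain that TGF-β induces in T cells, at 18.9 and 19.5 against 12.3 and 10.0 CPM. Both fell, with log2 fold changes of -1.14 and -0.79. Of the 26 pathway and response genes named, 9 passed in every alternative fit that held them: AMH, RGMA, THBS1, NOG, ZEB1, RUNX2, ACTA2, ID2 and MMP2. Each of the others lost the call without at least 1 of the JMJD3 libraries, and some in other fits too. GDF11, CHRD, ZFYVE16, ZFYVE9, FOXO1 and HDAC1 lost it in both limma fits on FPKM, and DAB2, FOXO1, ZFYVE9 and ID1 with the DESeq2 Wald test. E2F4, HDAC1 and ZFYVE9 lost it with the replicate block, E2F4 and HDAC1 with upper quartile scaling, and HDAC1 without a filter. With limma on log2(FPKM + 1) the log2 fold change was only 0.10 for ZFYVE16 (adjusted p = 0.662) and 0.14 for GDF11 (adjusted p = 0.476).

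**Figure D3:**
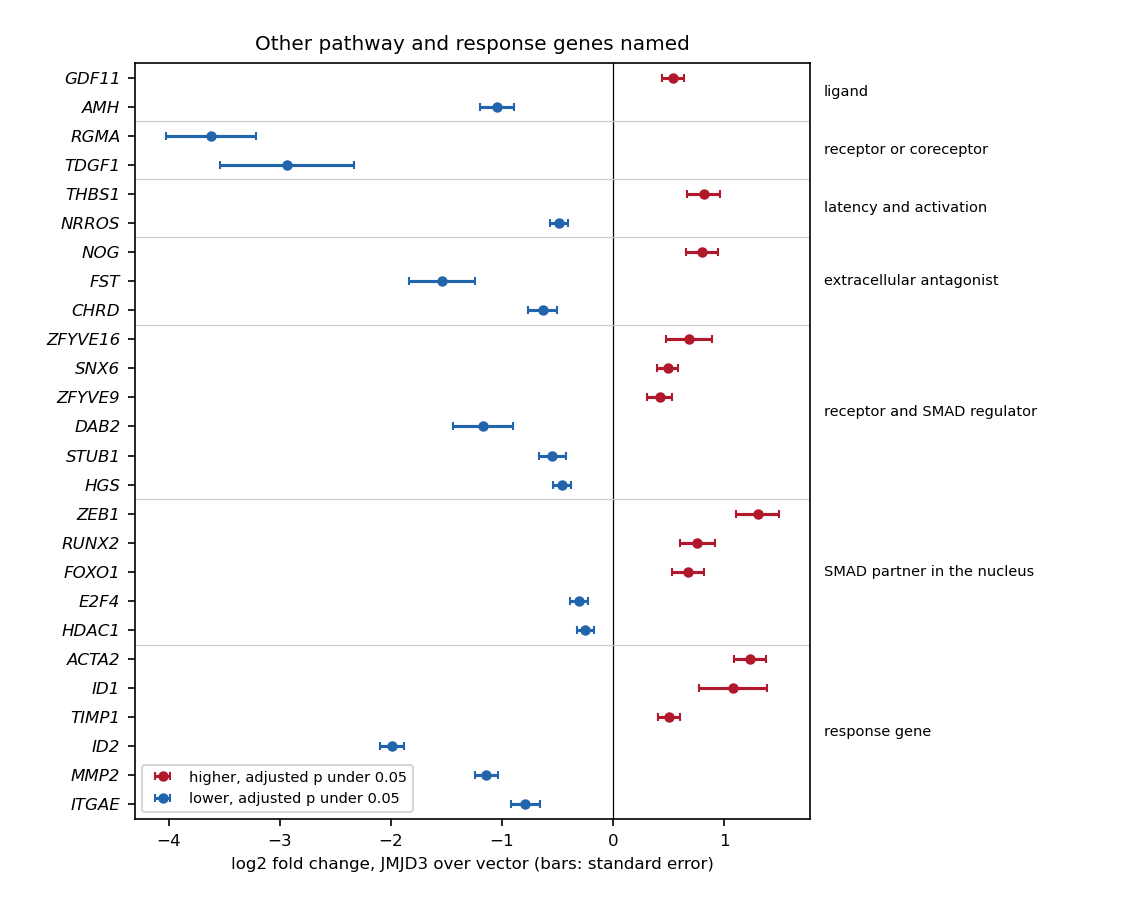
The log2 fold change of JMJD3 over vector cells from edgeR, with bars of 1 standard error, for the 26 pathway and response genes named, grouped by list. RGMA at -3.62 and TDGF1 at -2.94 lie farthest to the left and ZEB1 at 1.30 and ACTA2 at 1.24 farthest to the right.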

How the data were processed

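RNA-seq libraries of NB4 cells with the control vector (2) or the JMJD3 vector (2) were compared from 1 table of 60662 genes. The authors deposited estimated counts and FPKM, 1 of each per gene and library. The remaining 7 columns hold the authors' own comparison (group mean FPKM, log2 fold change, p-value, FDR, significance and direction) and were not used. No column of per-sample values was left unused (0). The submitters' processing notes name CASAVA 1.8, TopHat2 2.0.4, RSEM, edgeR and GRCh38. The study's methods name STAR, hg19, HTSeq-count and DESeq2, RPMI-1640 medium and a column kit, where the labels name DMEM and Trizol. Which of these made the table is not given in the sources used here. Coordinates and promoters are those of GRCh38.p14 in RefSeq, matched by symbol.

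The deposited counts are estimated counts multiplied by 1 constant per library (1.143, 1.047, 0.993 and 0.829 for vector libraries 1 and 2 and JMJD3 libraries 1 and 2). Between 89.4% and 89.7% of the nonzero values are whole multiples of it within 0.01. The deposited FPKM carries the same constants. The test had been planned on the deposited counts. Instead each library was divided by its constant, which restores the depth, and rounded to whole numbers, and the counts as deposited became an alternative added after the data were seen. Genes were kept with filterByExpr, scaled with TMM and put through glmQLFit and glmQLFTest of edgeR 4.0.16 in R 4.3.3, in a single fit of the 4 libraries without covariates, with Benjamini-Hochberg adjustment over the 15243 genes tested. The standard error is the size of the log2 fold change divided by the square root of F. The limit given for a count of 0 is 3 counts, which covers counting error alone. The tests were checked on simulated counts. Estimated counts can divide reads between similar genes, and the use of strand is not given, so that reads of overlapping and antisense genes cannot be told apart.

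The members and lists were chosen with earlier results of these data known. Named were members by result and role, in each pathway or response list up to 3 genes per direction past the adjusted p of 0.05 and with the largest change, and in each marker list the most abundant gene and every gene that passed. The result for 1 marker gene is not reported here. Promoters followed from a mean of at least 1 FPKM, groups without overlap and the 2 largest changes in each direction. Motifs were searched on both strands. As alternatives the scaling was changed to upper quartile or to DESeq2 1.42.0 size factors, the test to DESeq2's Wald test or to limma 3.58.1 (log2 of FPKM + 1 or FPKM + 0.1), the filter to none or to 10 counts in each library, and the threshold to an adjusted p of 0.01 or to 2-fold. A replicate block was added, and every library was left out once.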

Additional observations from a re-analysis of the deposited data

How the results depend on the processing

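All 11 members called kept their direction in every fit, and 6 of them (TGFB1I1, SMAD3, ENG, TGFB2, BMP2 and SMURF1) passed in every fit that held them; TGFB2 was not among the genes with at least 10 counts in every library. Of 463 alternative values over the 29 members, 396 kept direction and side of the threshold, 32 lost the call, 23 gained it and 12 changed sign, each of a member that did not pass. Those were TGFBR3 (0.0662 and 0.239), SMAD2 (0.182 and 0.187), TGIF2 (0.0434 and 0.0447) and ACVR2B (0.0421 and 0.0936) with limma on log2(FPKM + 1) and log2(FPKM + 0.1), and, when single libraries were left out, TGFB3 (-0.382 to 0.0147) and ACVR2A (-0.490 to 0.196) without JMJD3 replicate 1, and TGFBR1 (-0.0190 to 0.138) and SKIL (-0.0478 to 0.452) without vector replicate 2, each with its range over the 4 libraries. KDM6B and the 26 pathway and response genes named kept their direction throughout, and lost the call in 81 of 430 values. The markers that passed were only refitted with each library left out.

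With each library left out in turn, in edgeR fits where the lone sample is assumed to vary like the other group, genes higher ranged from 1679 to 4627 and genes lower from 953 to 4526, members higher from 3 to 11 and lower from 3 to 7, other pathway genes higher from 4 to 28 and lower from 2 to 25, and response genes higher from 1 to 7 and lower from 3 to 8. The median log2 fold change of the members ranged from 0.00808 to 0.138, and was 0.239 with limma on log2(FPKM + 0.1). Counts were lowest without a JMJD3 library. With limma on log2(FPKM + 1) and log2(FPKM + 0.1), 2046 and 2035 genes were higher, against 3304 by edgeR, 3 and 3 members were lower, 5 and 5 other pathway genes higher, and 3 and 3 response genes higher. The DESeq2 Wald test gave 2 response genes higher, upper quartile scaling 17 other pathway genes higher, and no filter 19. At an adjusted p under 0.01, 1485 genes were higher and 1296 lower, with 3 and 3 members, 5 and 5 other pathway genes, and 2 response genes higher. With a change of at least 2-fold the counts were 1157 higher and 438 lower, with 2 and 2 members, 1 and 5 other pathway genes and 2 and 2 response genes. A stricter threshold accounts for some of these by construction. More genes were called without a vector library than with all libraries, and fewer without a JMJD3 library. The cause of these and of the remaining moves was not tested.

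Deviations of replicate 1 from the group means, vector against JMJD3, had a correlation of -0.25 across genes. This value cannot decide whether the replicate numbers pair the libraries, because vector library 1 alone was sequenced on another lane. With the replicate block, response genes higher were 3 and not 6, members 6 higher and 4 lower, with TGFB1 lost, genes 3279 higher and 2422 lower, and the median of the members was 0.12. With crossed numbers as a block, an alternative added after the data were seen, 4170 genes were higher and 3644 lower, 9 members higher and 6 lower, and 19 other pathway genes higher. The counts as deposited, also added then, gave 3292 genes higher and 2906 lower, with 6 and 5 members, the same members as above. With 2 libraries a group, low members such as TGFB3, ACVR2A and SMAD9 carry standard errors of 0.31 to 0.36, so that small differences were not detectable.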
